A study of Homo sapiens with 6 samples.

Results

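The genes described here encode the oxygen sensors of the cell, the HIF transcription factors and parts of the ligase that destroys HIF. They were chosen by their symbols: HIF1A, EPAS1, ARNT, ARNT2, VHL, EGLN1, EGLN2, HIF1AN, ELOB and CUL2, 10 of the 58395 genes listed. Each symbol matched 1 Ensembl gene, and all 10 had enough counts to be tested. HCT116 is an established human colorectal cancer line. Cells infected with lentivirus were selected with puromycin and carried either a non-target hairpin (shControl, 3 biological replicates) or a single hairpin against STBD1 (shSTBD1, 3 biological replicates). The growth protocol is the same for both groups, DMEM with serum under CO2, and names no hypoxia or other treatment and no time point. The labels give no separate infections, so p-values measure the spread between these replicates. The RNA was sequenced from cells in bulk, so that fewer cells of a kind and less RNA per cell cannot be told apart.

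In oxygen, the prolyl hydroxylases EGLN1 and EGLN2 mark the alpha subunits HIF1A and EPAS1, and VHL, joined through elongins to the cullin CUL2, ubiquitinates the marked protein. The asparagine hydroxylase HIF1AN blocks the contact of the alpha subunits with the coactivators EP300 and CREBBP. When oxygen falls, the alpha subunits escape, pair with ARNT or ARNT2 and bind a short core motif near genes for glycolysis, iron uptake and survival. The alpha subunits are controlled largely as proteins, and only RNA was measured here. STBD1, the targeted gene, encodes a protein proposed to carry glycogen to autophagy.

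The libraries held between 17689097 and 21668274 expected counts. STBD1 stood at 16.2, 15.7 and 14.4 CPM (counts scaled to library size by TMM) in shControl and at 11.6, 9.06 and 9.18 CPM in shSTBD1, a log2 fold change of -0.64 (SE 0.098, adjusted p = 0.00029, edgeR quasi-likelihood test). All shSTBD1 libraries lay below all shControl libraries. A gene is called here at an adjusted p under 0.05 in that test, with Benjamini-Hochberg adjustment over 15566 tested genes. Of the colon epithelial markers, EPCAM, CDH1, KRT8, KRT18, KRT19 and CDX2 were tested and VIL1 was near 0. CDH1 and the 3 keratins, 4 of these 6, were higher in shSTBD1, with a median log2 fold change of 0.21 over the 6. Over all tested genes 8.22% were higher and the median was 0.0023. The part of these markers in the results below was not tested. Of the fibroblast markers COL1A1 stood at 30.9 to 40.3 CPM and did not pass the test, while COL1A2, DCN and PDGFRB were near 0, as were the immune and endothelial markers.

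Of the 10 oxygen-sensing genes, EPAS1 and ELOB were higher in shSTBD1, VHL was lower, and 7 did not pass the test. EPAS1 rose by 20.95% and VHL fell by 16.1%. The 2 higher genes compare with 8.22% of all tested genes and the 1 lower gene with 7.54%, or 15.8% in either direction. The median log2 fold change was -0.0074 over the 10 and 0.0023 over all tested genes. The same 3 genes were the only ones of the 10 whose libraries did not overlap between the groups, against 33.6% of all tested genes.

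**Figure D1:**
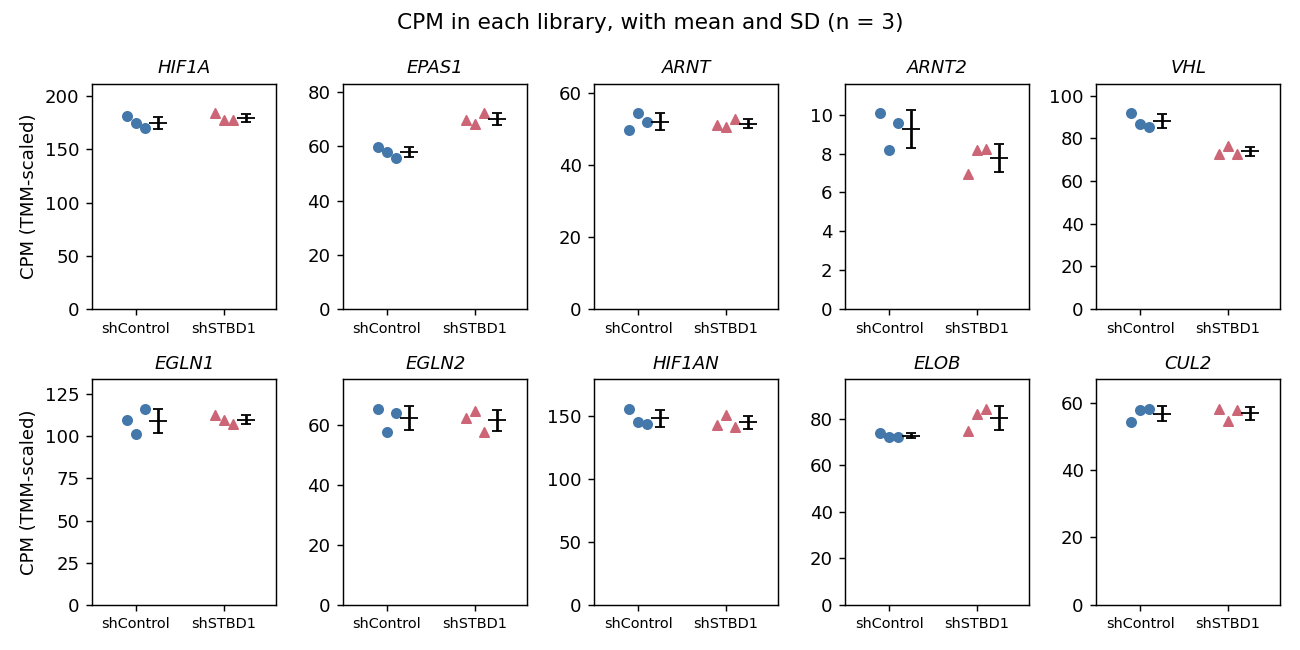
Each panel plots 1 gene, with TMM-scaled CPM from 0 on the vertical axis, 1 point per library (circles shControl, triangles shSTBD1) and the mean with its SD (n = 3) beside the points. EPAS1, VHL and ELOB are the panels in which the groups do not overlap, and in ELOB 1 shSTBD1 library, at 74.7 CPM, lies next to the highest shControl library, at 74.1 CPM.

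Per length, the genes span a wide range of levels. ELOB, elongin B, stood highest, at 219.6 ± 5.57 TPM (RSEM's length-scaled transcript abundance, SD, n = 3) in shControl and 242.5 ± 16.2 TPM in shSTBD1. HIF1A followed, at 65.1 ± 1.63 and 66.8 ± 1.67 TPM. VHL came next, at 41.4 ± 0.525 and 35.6 ± 1.89 TPM. The ligase subunit ELOB was thus well above CUL2, which shares a complex with it and stood at 25.5 ± 1.37 and 24.65 ± 1.40 TPM. EGLN2 stood at 37.8 ± 1.46 and 37.4 ± 2.33 TPM, HIF1AN at 32.6 ± 1.48 and 31.3 ± 0.693 TPM and EGLN1 at 25.6 ± 2.75 and 25.3 ± 1.27 TPM. The oxygen sensors therefore lay between HIF1A and EPAS1 in both groups. ARNT stood at 17.3 ± 0.752 and 17.5 ± 0.146 TPM, and EPAS1 at 15.9 ± 0.519 and 18.5 ± 2.16 TPM. ARNT2, a partner used mostly in neurons, was lowest, at 1.91 ± 0.247 and 1.63 ± 0.351 TPM. Over the 6 libraries, the ranges of VHL and EGLN2 overlapped, as did those of EGLN1 and CUL2 and those of ARNT and EPAS1, so that these neighbours are not ordered beyond their spread. The order was the same in CPM per kilobase.

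**Figure D2:**
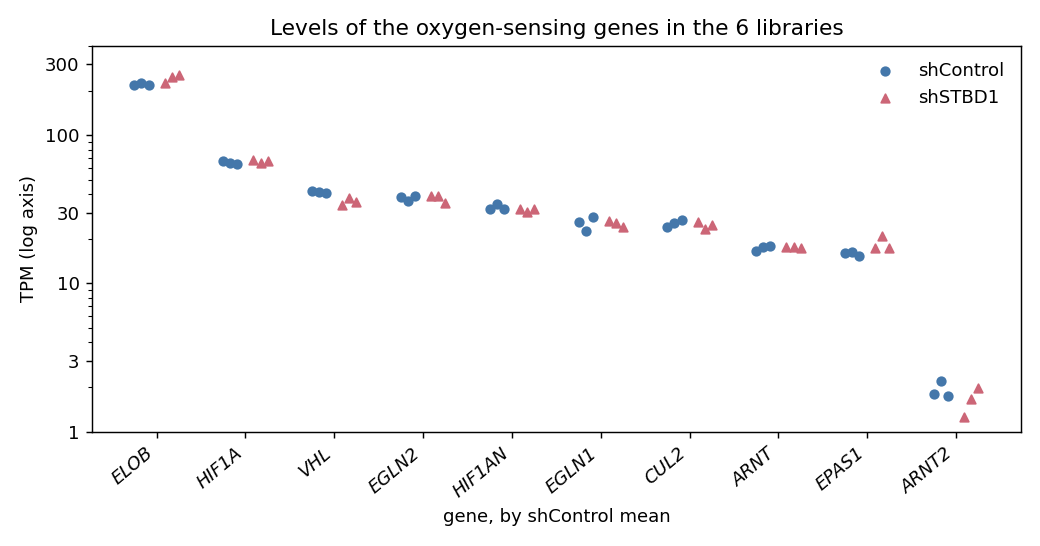
TPM of the 10 genes on a log axis, ordered by the shControl mean, with 1 point per library (circles shControl, triangles shSTBD1). ELOB lies above 216 TPM in all 6 libraries, ARNT2 lies at 2.19 TPM or below, and the remaining 8 genes lie between 15.3 and 68.2 TPM.

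Of the transcription factors, EPAS1 (ENSG00000116016, chromosome 2, 46293667 to 46386697, plus strand, GRCh38) encodes the HIF alpha subunit known for targets in iron handling and blood vessels. It stood at 59.7, 58.0 and 55.9 CPM in shControl and at 69.7, 68.1 and 72.3 CPM in shSTBD1. All shSTBD1 libraries lay above all shControl libraries. The log2 fold change was 0.27 (SE 0.043, 95% interval 0.18 to 0.36, adjusted p = 0.00033, edgeR). In TPM, which divides by the effective length that RSEM estimates in each library, the values were 16.0, 16.4 and 15.3 in shControl and 17.2, 21.0 and 17.2 in shSTBD1. The groups again did not overlap, but shSTBD1 replicate 2 stood apart. The effective length of EPAS1 in that library was 3628 bases, against 4592 and 4708 in the other shSTBD1 libraries and 4146 to 4178 in shControl. With effective-length offsets the log2 fold change was 0.23 with an adjusted p of 0.19 (edgeR), and on log2(TPM + 1) it was 0.20 with an adjusted p of 0.29 (limma). In these fits the call was lost.

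HIF1A (ENSG00000100644, chromosome 14, 61695513 to 61748259, plus strand), the alpha subunit known for the glycolytic response, stood at 181, 174 and 169.5 CPM in shControl. In shSTBD1 it stood at 184, 177 and 178 CPM. The groups overlapped, and the log2 fold change of 0.038 (95% interval -0.033 to 0.11, adjusted p = 0.49, edgeR) leaves room for a rise of at most 7.93% at that confidence. ARNT (chromosome 1, 150809713 to 150876708, minus strand), the common partner of the alpha subunits and of the dioxin receptor, stood at 49.8, 54.5 and 52.0 CPM in shControl and at 51.2, 50.6 and 52.9 CPM in shSTBD1. Its log2 fold change was -0.016 (95% interval -0.11 to 0.083, adjusted p = 0.87, edgeR).

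ARNT2 (chromosome 15, 80404350 to 80597933, plus strand) stood at 10.1, 8.19 and 9.54 CPM in shControl and at 6.95, 8.18 and 8.22 CPM in shSTBD1. The highest shSTBD1 library lay just above the lowest shControl library. The log2 fold change was -0.24 (SE 0.11, 95% interval -0.48 to -0.0097), with an adjusted p of 0.15 (edgeR). This estimate is about as large as that of VHL but its error is much wider, and it did not pass the test in any of 17 alternatives (adjusted p from 0.071 to 0.60).

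Of the sensors, EGLN1 (chromosome 1, 231363751 to 231422287, minus strand), the prolyl hydroxylase known to set HIF levels in most cells, stood at 109, 101.5 and 116 CPM in shControl. In shSTBD1 it stood at 112, 109.7 and 107 CPM, within the shControl range, with a log2 fold change of 0.010 (95% interval -0.083 to 0.10, adjusted p = 0.91, edgeR). EGLN2 (chromosome 19, 40798996 to 40808434, plus strand), its relative, stood at 65.4, 57.9 and 64.0 CPM in shControl and at 62.5, 64.6 and 57.6 CPM in shSTBD1. Its groups overlapped, with a log2 fold change of -0.018 (95% interval -0.13 to 0.095, adjusted p = 0.87, edgeR). A read-through gene, RAB4B-EGLN2, shares exons with EGLN2 on the same strand and held 2 to 13.9 counts per library. HIF1AN (chromosome 10, 100529072 to 100559998, plus strand) stood at 156, 145 and 144 CPM in shControl and at 143, 151 and 142 CPM in shSTBD1. Its log2 fold change was -0.030 (95% interval -0.11 to 0.052, adjusted p = 0.66, edgeR). For these sensors the 95% intervals reached no further than -0.13 and 0.10 on the log2 scale.

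Of the ligase, VHL (ENSG00000134086, chromosome 3, 10141778 to 10153667, plus strand) encodes the subunit that recognises hydroxylated HIF and is the tumour suppressor lost in von Hippel-Lindau disease. It stood at 91.9, 86.9 and 85.6 CPM in shControl and at 72.6, 76.4 and 72.8 CPM in shSTBD1. All shSTBD1 libraries lay below all shControl libraries, by more than the range within either group. The log2 fold change was -0.25 (SE 0.040, 95% interval -0.34 to -0.17, adjusted p = 0.00044, edgeR). In TPM the values were 41.9, 41.4 and 40.9 in shControl and 33.9, 37.6 and 35.2 in shSTBD1, again without overlap. With effective-length offsets the log2 fold change was -0.21 (adjusted p = 0.089, edgeR) and on log2(TPM + 1) it was -0.22 (adjusted p = 0.097, limma), so the call was lost there while the direction held.

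ELOB (ENSG00000103363, chromosome 16, 2771414 to 2777289, minus strand) encodes elongin B, which together with elongin C joins VHL to CUL2. It also serves other ligases and transcript elongation. It stood at 74.1, 72.1 and 72.3 CPM in shControl and at 74.7, 82.2 and 84.4 CPM in shSTBD1. The groups did not overlap, but shSTBD1 replicate 1 lay close to shControl. The log2 fold change was 0.14 (SE 0.045, 95% interval 0.049 to 0.24, adjusted p = 0.038, edgeR). This call was lost in 9 of 17 alternatives, among them DESeq2 (adjusted p = 0.080). Without shSTBD1 replicate 3 the log2 fold change was 0.11 with an adjusted p of 0.19, and without shSTBD1 replicate 2 it was 0.13 with an adjusted p of 0.15 (edgeR). Without shControl replicate 2 or 3 the adjusted p was 0.091 or 0.10. CUL2 (chromosome 10, 35008504 to 35127006, minus strand), the scaffold of the ligase, stood at 54.3, 57.7 and 58.2 CPM in shControl and at 58.1, 54.5 and 57.7 CPM in shSTBD1. Its log2 fold change was 0.00090 (95% interval -0.095 to 0.097, adjusted p = 0.99, edgeR).

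The change of a gene moved with its length in these libraries. In the 10% of tested genes with the shortest effective length, up to 714 bases, 12.8% were called higher and 1.35% lower, with a median log2 fold change of 0.077. In the 10% with the longest, from 4688 bases, 5.65% were higher and 16.4% lower, with a median of -0.045. ELOB, with a mean effective length of 376 bases, is among the shortest 10%. With gene-length offsets, which were added after the values were seen, its log2 fold change was 0.057 with an adjusted p of 0.43 (edgeR). VHL, at 2387 bases, and EPAS1, at 4235 bases, are in neither of these groups, and both were still called with these offsets, at -0.25 and 0.30.

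Some members share sequence with a neighbour on the other strand, and the sources used here do not say if reads were assigned by strand. ELOB overlaps exons of SRRM2, which stood far higher, at 1197 to 1304 CPM, with a log2 fold change of -0.071 (adjusted p = 0.13, edgeR), opposite in sign to that of ELOB. HIF1AN overlaps NDUFB8 (0.018, adjusted p = 0.82, edgeR), and CUL2 overlaps CREM (0.14, adjusted p = 0.35, edgeR). The antisense transcripts HIF1A-AS1 and HIF1A-AS3 held at most 2 and 8 counts in a library. For EPAS1 and VHL no overlapping gene was counted in the files.

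**Figure D3:**
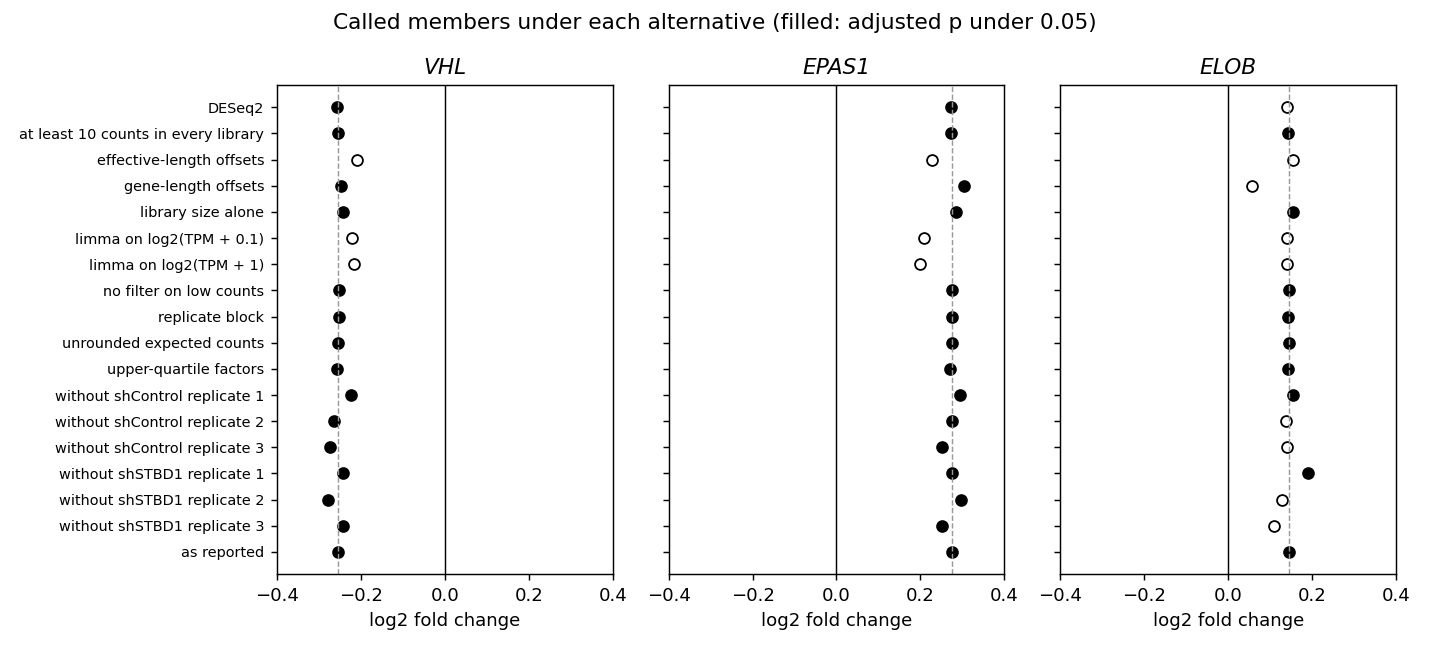
Log2 fold change of VHL, EPAS1 and ELOB (shSTBD1 against shControl) as reported, at the bottom, and under each of 17 alternatives, with filled points for an adjusted p under 0.05 and a dashed line at the reported value. VHL and EPAS1 keep their sign throughout and are filled in 14 alternatives each, while ELOB is filled in 8 and lies lowest, at 0.057, with gene-length offsets.

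Within a library, the ratio of a pair of genes does not depend on the scaling between libraries. For 5 such ratios of TPM, each compared by a two-sided exact permutation test, 3 libraries against 3 cannot give a p under 0.1. The ratio of VHL to HIF1A was 0.628, 0.637 and 0.644 in shControl and 0.496, 0.579 and 0.524 in shSTBD1, without overlap (log2 difference -0.26, exact permutation p = 0.1, adjusted p = 0.25). The ratio of EPAS1 to HIF1A was 0.240, 0.252 and 0.242 in shControl and 0.253, 0.323 and 0.256 in shSTBD1. These groups did not overlap either (log2 difference 0.17, exact permutation p = 0.1, adjusted p = 0.25), but without shSTBD1 replicate 2 the difference was 0.058. HIF1A therefore remained the more abundant alpha subunit RNA in every library. The ratios of VHL to CUL2, 1.63 ± 0.11 and 1.45 ± 0.16, and of ARNT2 to ARNT, 0.11 ± 0.014 and 0.093 ± 0.020, overlapped between the groups (SD, n = 3, exact permutation p = 0.3, adjusted p = 0.375 for each). Ratios of CPM, which do not use the effective length, were not tested. Their log2 difference was -0.26 for VHL to CUL2 (-0.17 in TPM) and -0.24 for ARNT2 to ARNT (-0.27 in TPM). It was 0.24 for EPAS1 to HIF1A and -0.29 for VHL to HIF1A. The ratio of EGLN2 to EGLN1 was 1.48 in both groups (exact permutation p = 1.0).

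The rest of the pathway was followed in a list of 18 other genes for hydroxylation, the ligase, coactivators and HIF stability, of which 17 were tested. Of these, 3 were higher, 3 were lower and 11 did not pass, against 8.22% higher and 7.54% lower over all tested genes. Their median log2 fold change was 0.018. The higher genes all work with the VHL ligase, but not with it alone. RBX1, its RING subunit, stood at 37.2, 43.6 and 45.97 CPM in shControl and at 50.04, 51.1 and 50.8 CPM in shSTBD1 (log2 fold change 0.26, adjusted p = 0.0081, edgeR). NEDD8, the ubiquitin-like protein that activates cullins, was higher by 0.19 on the log2 scale (adjusted p = 0.0060, edgeR), and ELOC, elongin C, by 0.16 (adjusted p = 0.022, edgeR). NEDD8 and ELOC are among the shortest 10% of genes. RBX1, at 913 bases, is in the next 10%, of which 9.64% were higher and 2.31% lower. With gene-length offsets only RBX1 of the 3 was called. VHL itself, the subunit that gives the ligase its HIF substrate, moved the other way.

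The lower genes were the coactivators EP300 and CREBBP, which bind the alpha subunits, and OS9, a lectin reported to bind HIF1A. EP300 stood at 119, 116 and 112 CPM in shControl and at 103, 94.0 and 104 CPM in shSTBD1 (log2 fold change -0.20, adjusted p = 0.0038, edgeR). CREBBP fell by 0.16 and OS9 by 0.14 on the log2 scale (adjusted p = 0.0073 and 0.014, edgeR). EP300 and CREBBP are among the longest 10% of genes, and all 3 lower genes were still called with gene-length offsets. With effective-length offsets, or with limma on log2(TPM + 1) or log2(TPM + 0.1), none of the 6 was called, and with effective-length offsets EP300 stood at -0.31 and CREBBP at -0.048. EGLN3, the prolyl hydroxylase that is itself a HIF target, stood at 14.02, 11.8 and 13.1 CPM in shControl and at 12.6, 16.1 and 14.8 CPM in shSTBD1, and its adjusted p was 0.26 (edgeR). HIF3A, the third alpha subunit, stood at 0.479 CPM or below in every library and was not tested.

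**Figure D4:**
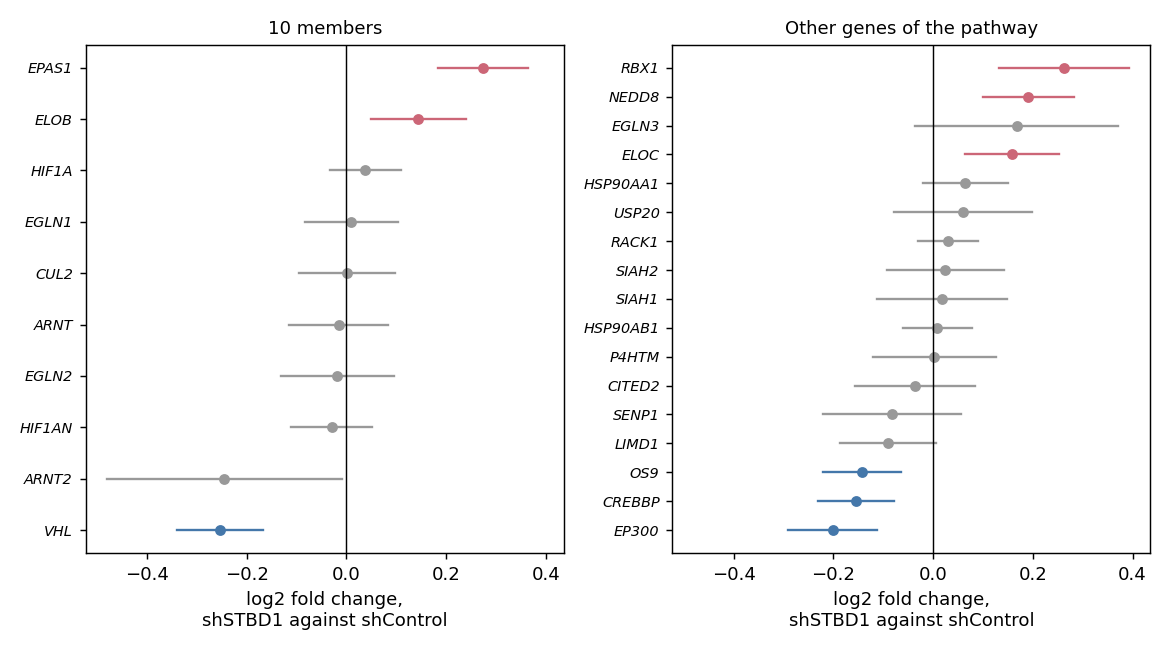
Log2 fold change (shSTBD1 against shControl, points) with its 95% interval (lines) from the edgeR fit, for the 10 genes on the left and the 17 tested other genes of the pathway on the right. Red marks genes called higher, blue genes called lower and grey those that did not pass. EPAS1 and RBX1 lie at the top of the panels, at 0.27 and 0.26, and VHL and EP300 at the bottom, at -0.25 and -0.20.

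Relatives of the members by structure were followed as well. EPAS1, HIF1A, ARNT and ARNT2 belong to the bHLH-PAS family of paired transcription factors, and of 12 other members of it 8 were tested. SIM2, known from development of the nervous system, was the 1 called higher (0.27, adjusted p = 0.011, edgeR), and none was called lower. Over all tested genes 8.22% were higher and 7.54% lower. The dioxin receptor AHR, which also pairs with ARNT, was not called. Of 15 genes for other cullins, elongins and their adaptors, 3 were higher and 3 lower, against 8.22% and 7.54% of all tested genes. The higher ones were RBX1 and ELOC, described above, and KLHDC3, a CUL2 adaptor (0.15, adjusted p = 0.024, edgeR). The lower ones were the cullins CUL3 (-0.17, adjusted p = 0.012) and CUL4A (-0.12, adjusted p = 0.022) and the CUL2 adaptor FEM1B (-0.20, adjusted p = 0.0047, all edgeR). VHL and FEM1B, both substrate receptors of CUL2 ligases, were lower and KLHDC3 was higher, beside a log2 fold change of 0.00090 for CUL2. KLHDC2 (-0.0023, adjusted p = 0.99) and LRR1 (-0.032, adjusted p = 0.77, both edgeR), of the same list, were not called. FEM1B, at 6679 bases, is among the longest 10% of genes. With gene-length offsets it was still called (-0.16, adjusted p = 0.0071, edgeR). The counts of called relatives were sensitive to single libraries. SIM2 was not called without shSTBD1 replicate 1. The higher relatives of CUL2 numbered 1 without shControl replicate 3 or shSTBD1 replicate 2, and the lower ones numbered 1 without shSTBD1 replicate 3. With effective-length offsets, or with limma on log2(TPM + 1) or log2(TPM + 0.1), 0 of these relatives of CUL2 were called, and SIM2 was lost in both limma fits.

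A list of 30 genes known as HIF targets was followed as well, of which 29 were tested. This list, like the members and the other lists, was chosen with earlier results of these data known. Its counts therefore describe the list only. In shSTBD1, 15 were higher, 2 were lower and 12 did not pass, against 8.22% higher and 7.54% lower over all tested genes. The median log2 fold change of the targets was 0.15, against 0.0023 over all tested genes. ERO1A, an oxidase of the endoplasmic reticulum, stood at 102, 98.9 and 99.5 CPM in shControl and at 169, 160.3 and 166 CPM in shSTBD1 (log2 fold change 0.72, adjusted p = 1.2e-09, edgeR). ANKRD37, a small ankyrin repeat protein, stood at 12.5, 14.1 and 13.2 CPM and at 21.3, 20.8 and 23.95 CPM (0.73, adjusted p = 7.5e-06, edgeR). In both genes the groups were well apart. ADM, the vasodilator adrenomedullin, rose by 0.47, the transferrin receptor TFRC by 0.40 and the mTOR inhibitor DDIT4 by 0.29 on the log2 scale (adjusted p = 2.3e-06, 5.0e-07 and 6.6e-06, edgeR).

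The targets did not move as 1 group. SLC2A1, a glucose transporter, fell from 481, 470.5 and 487 CPM in shControl to 396, 394 and 393 CPM in shSTBD1 (log2 fold change -0.28, adjusted p = 6.3e-06, edgeR). PFKFB4, named after its values were seen as the other lower target, had a log2 fold change of -0.16 (adjusted p = 0.027, edgeR). Other targets in glucose use, named in the same way, were higher or not called. LDHA (0.12, adjusted p = 0.014), PGK1 (0.12, adjusted p = 0.013) and ALDOA (0.10, adjusted p = 0.028, all edgeR) were higher. ENO1, PFKFB3 and PDK1 were not called. Of 17 alternatives, LDHA was called in 9, PGK1 in 12, ALDOA in 8 and PFKFB4 in 7. VEGFA, the vascular growth factor, was also named after its values were seen and had a log2 fold change of 0.012 (adjusted p = 0.89, edgeR). With gene-length offsets, 15 targets were again higher and 2 lower. With effective-length offsets or with limma on TPM, 6 were higher and 1 was lower. Over all tested genes 1280 were higher in the fit reported here and 287 with effective-length offsets. With limma 178 were higher on log2(TPM + 1) and 176 on log2(TPM + 0.1). Lower genes numbered 1173, 224, 114 and 114 in the same order. Without shControl replicate 2, or without shSTBD1 replicate 1, 9 targets were higher and 1 was lower. Over all genes tested there, 1153 and 811 were higher and 1059 and 759 lower. Many of the targets answer to other factors as well, so the counts of called targets describe a list of genes and do not measure HIF.

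**Figure D5:**
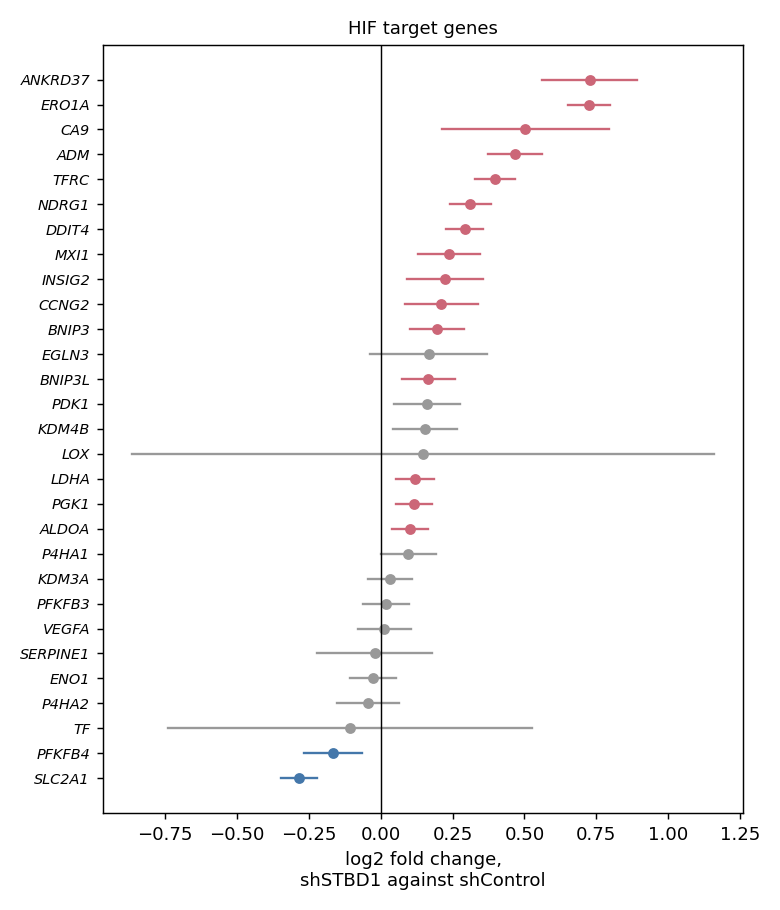
Log2 fold change (shSTBD1 against shControl, points) with its 95% interval (lines) of the 29 tested HIF target genes from the edgeR fit, with red for called higher, blue for called lower and grey for not called. ANKRD37 and ERO1A lie highest, at 0.73 and 0.72, SLC2A1 lies lowest, at -0.28, and the wide lines belong to LOX and TF, both near 1 CPM or below.

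The HIF dimer binds the core motif ACGTG or GCGTG. Both spellings were searched on both strands in RefSeq promoter windows of 300 bases (250 before and 50 after the start, GRCh38.p14). Of 35116 windows of all genes, 48.4% hold at least 1, so a match is common. Windows were given for 8 of the 10 genes, VHL and ARNT2 being the others, and 5 of the 8 hold a motif: HIF1A, EPAS1, EGLN1, EGLN2 and ELOB. Some genes have several windows, and counted as the 48.4% is, by window, 5 of their 12 windows hold one. EPAS1 and ELOB are shown as the higher members, EGLN1 as the main sensor, and ANKRD37, for comparison, as a target called higher in all 17 alternatives. The windows are chr2:46297157-46297456 on the plus strand for EPAS1, chr1:231422238-231422537 on the minus strand for EGLN1, chr16:2777231-2777530 on the minus strand for ELOB and chr4:185396591-185396890 on the plus strand for ANKRD37. Each is written from 5′ to 3′ on the strand of the gene, with the motif, or its reverse complement, in capitals:
EPAS1: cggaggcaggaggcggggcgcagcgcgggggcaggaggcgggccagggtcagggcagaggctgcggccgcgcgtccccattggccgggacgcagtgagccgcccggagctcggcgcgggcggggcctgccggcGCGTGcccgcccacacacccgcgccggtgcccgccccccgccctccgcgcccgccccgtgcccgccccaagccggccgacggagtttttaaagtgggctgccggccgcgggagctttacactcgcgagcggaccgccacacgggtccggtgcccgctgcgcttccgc
EGLN1: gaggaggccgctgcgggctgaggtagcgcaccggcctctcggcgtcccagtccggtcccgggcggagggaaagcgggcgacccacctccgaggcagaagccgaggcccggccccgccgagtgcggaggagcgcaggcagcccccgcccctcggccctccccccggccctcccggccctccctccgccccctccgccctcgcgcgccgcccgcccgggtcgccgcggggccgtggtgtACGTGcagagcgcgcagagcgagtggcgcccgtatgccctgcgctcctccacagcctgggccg
ELOB: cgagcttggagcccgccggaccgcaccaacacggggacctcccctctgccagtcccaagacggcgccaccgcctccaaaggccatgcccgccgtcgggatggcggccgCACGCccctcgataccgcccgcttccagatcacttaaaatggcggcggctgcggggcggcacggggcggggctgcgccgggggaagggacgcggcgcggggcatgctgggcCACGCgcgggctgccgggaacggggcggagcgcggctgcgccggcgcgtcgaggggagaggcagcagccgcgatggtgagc
ANKRD37: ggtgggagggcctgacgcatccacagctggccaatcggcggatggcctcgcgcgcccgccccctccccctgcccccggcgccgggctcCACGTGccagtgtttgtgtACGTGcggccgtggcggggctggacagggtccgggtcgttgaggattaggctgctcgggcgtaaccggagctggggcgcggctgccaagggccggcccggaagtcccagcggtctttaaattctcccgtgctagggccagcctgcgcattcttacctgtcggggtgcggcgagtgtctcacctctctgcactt
Counted from the start as 0, the motif begins at -117 in EPAS1 and at -13 in EGLN1. In ELOB both matches, at -142 and -31, are on the other strand. ANKRD37 holds 1 at -143 and a pair at -162 and -161 that overlap as a palindrome on both strands. EPAS1, called higher, and EGLN1, not called, each hold a single motif, so that its presence does not separate these 2 genes.

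Sites for the hairpin against STBD1 were not searched. The non-target hairpin contains the 7 bases GTGTCAC, and only these were searched. They occur in the 3′ UTR of the canonical transcript of 9.8% of 13036 tested genes and of 1 of the 10 members, HIF1AN, which was not called. VHL, EPAS1 and ELOB do not hold them. Of the HIF targets, 6 of those tested do, among them ERO1A, ADM and TFRC. Of these 6 carriers 5 were higher and 0 lower, with a median log2 fold change of 0.31. Without them, a count added after the values were seen, 10 of 23 tested targets were higher and 2 lower, with a median log2 fold change of 0.15. Over all tested genes 8.22% were higher and 7.54% lower, with a median of 0.0023. Calls among all genes that hold the 7 bases were not counted, and the part of these bases in the calls was not tested.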

How the data were processed

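RNA-seq libraries of HCT116 cells (3 shControl, 3 shSTBD1) were grouped by their labels. Per the methods, the authors used the NEBNext Ultra kit and paired-end reads, removed low-quality reads, aligned to Hg38, with Ensembl gene models, by STAR 2.7.1a and quantified with RSEM 1.3.1. The deposited expected counts are estimated reads per gene, not normalized. The deposited TPM values are RSEM's, scaled to the same total in every library. Effective lengths and posterior standard deviations come from the same files, and the latter were at most 0.434% of a member's count.

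Expected counts, of which 19.9% to 20.4% are fractional, were rounded, filtered with filterByExpr and scaled by TMM (factors 0.979 to 1.009). They were fitted by edgeR 4.0.16 (glmQLFit and glmQLFTest, no block, all 6 libraries, R 4.3.3), with Benjamini-Hochberg adjustment over 15566 genes. The common biological coefficient of variation was 3.37%. Totals of 17689097 to 21668274 set the precision, and intervals are 95% intervals of the fit. Alternatives used DESeq2 1.42.0, limma 3.58.1 on log2(TPM + 1) or log2(TPM + 0.1), other scalings, filters and offsets, a replicate block and leaving out each library. The code was tested on simulated data. Named genes are the members, STBD1, up to 6 called genes of each list by adjusted p, and genes overlapping a member. Cell type markers, EGLN3, HIF3A, AHR, KLHDC2, LRR1, PFKFB4, LDHA, PGK1, ALDOA, ENO1, PFKFB3, PDK1, VEGFA, LOX and TF are named outside this rule. The markers were listed by name, and the others were chosen after their values were seen. Members and lists were chosen with earlier results of these data known. Gene positions, overlaps and 3′ UTRs come from GENCODE on GRCh38. Protein data were not analysed here.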

Additional observations from a re-analysis of the deposited data

How the results depend on the processing

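EPAS1 (log2 fold change 0.20 to 0.30) and VHL (-0.28 to -0.21) kept their direction under all 17 alternatives and were called in 14. ELOB (0.057 to 0.19) was called in 8. HIF1A and ARNT2 kept their direction and were never called. STBD1 was lower throughout and called in 15 of 17, the exceptions being limma on log2(TPM + 1), -0.54, and on log2(TPM + 0.1), -0.65. Members called higher numbered 1 with DESeq2, 1 with gene-length offsets and 0 with effective-length offsets or limma on TPM, and 1 to 2 with a library left out. Members called lower numbered 0 in the limma fits on TPM and with effective-length offsets. Calls over all genes also fell there, from 2453 to 511 with effective-length offsets, 292 on log2(TPM + 1) and 290 on log2(TPM + 0.1), and were 1690 with DESeq2 and 1409 to 2577 with a library left out. The cause was not tested.

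Uncalled members near 0 changed sign. ARNT was at 0.032 with effective-length offsets, 0.0045 with gene-length offsets and 0.022 and 0.021 with limma on log2(TPM + 0.1) and log2(TPM + 1). EGLN1 was at -0.0051 with effective-length offsets and at -0.011 in both limma fits (-0.0110 and -0.0108). HIF1AN was at 0.0054 with gene-length offsets. CUL2 was at -0.0013 with DESeq2, -0.0020 with upper-quartile factors, -0.038 with effective-length offsets and -0.048 and -0.047 with limma. With a library left out, ARNT ran from -0.050 to 0.020, EGLN1 from -0.040 to 0.058, EGLN2 from -0.072 to 0.028, HIF1AN from -0.060 to 0.0061 and CUL2 from -0.032 to 0.031.

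Deviations of libraries that share a replicate number from their group means correlated at 0.071, 0.068 and -0.0080, so they share only a number. With the replicate number as a block, 2 members were higher and 1 lower, and 2579 genes were called in all, against 2453 without it. Every EPAS1, VHL and ELOB call held under the replicate block, at 0.27, -0.25 and 0.14. With 3 libraries a group, the ratio tests cannot give a p under 0.1.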
